A study of Mus musculus with 6 samples.

Results

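Mitochondria join and divide through a small set of membrane proteins, and the transcripts of 10 mouse genes for these proteins were followed in the ovary after treatment with M1. The genes were chosen by role and found by symbol in the TPM table, which was joined to the count table by gene identifier. They are Mfn1, Mfn2, Miga1 and Miga2 for fusion of the outer membrane, Opa1 for fusion of the inner membrane, Oma1 and Yme1l1 for the proteases that cut OPA1, and Dnm1l, Mff and Fis1 for fission. They are 10 of the 55536 genes in the tables, and all 10 passed the filter on low counts. M1 is a phenylhydrazone sold as a promoter of mitochondrial fusion. The libraries came from ICR female mice of 10 weeks on the day of proestrus, the stage before ovulation. There were 3 mice that received M1 and 3 Control mice. The labels describe the M1 mice as cycle disrupted and the Control mice as normal, so treatment and cycle state cannot be told apart. M1 was given into the peritoneum at 10 mg/kg at 9 h and at 16 h, dissolved at 1 mg/ml in PBS that held 10% Tween80 and 5% DMSO, and the ovaries were taken at 20 h. That is 11 h after the first dose and 4 h after the second. What the Control mice received is not given in the labels. The labels name no engineered allele in either group. Both ovaries of a mouse were pooled and gave 1 polyA library, so each value below stands for 1 mouse and for all cell types of the ovary together. In such tissue, fewer cells of a type and less RNA per cell cannot be told apart.

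The mitofusins are GTPases in the outer membrane that tether mitochondria to each other and fuse them, and the mitoguardins MIGA1 and MIGA2 are outer membrane proteins that aid this step through lipid metabolism. OPA1 is a dynamin-like GTPase that fuses the inner membrane and keeps the cristae tight, and its long and short forms are set by the inner membrane proteases OMA1, which responds to stress, and YME1L. Fission is carried out by DRP1, the product of Dnm1l, a cytosolic GTPase that is recruited to the outer membrane by receptors such as MFF and, in yeast above all, FIS1. Much of the control of this machinery is known to lie in cutting, phosphorylation and turnover of the proteins, which RNA counts do not measure. In steroid-producing cells of the ovary, mitochondria hold the first enzyme of steroid synthesis.

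Counts assigned to genes ran from 12536440 to 18651402 per library. A level is given as CPM, the count scaled to the TMM-normalized library size, for comparisons of 1 gene between mice, and as TPM, which is also divided by gene length, for comparisons between genes. The groups were compared over 17499 genes with the quasi-likelihood test of edgeR. A gene was called where its Benjamini-Hochberg adjusted p was under 0.05 and its fold change above 1.5. In each group 1 library stood apart. On the first principal component of all tested genes, which held 36.0% of the variance, the M1 mice lay at -20.8, -1.23 and -40.6, against -32.6, 46.7 and 48.6 for the Control mice. Control mouse 1 therefore lay among the M1 mice, and the log2 fold changes of the members below are also given without it. On the second component, with 26.3% of the variance, M1 mouse 2 lay at -59.0, against 1.05 and -6.86 for M1 mice 1 and 3 and 42.4, 16.2 and 6.14 for Control mice 1 to 3. Transcripts of the mitochondrial genome took 5.98% to 7.35% of the counts in M1 mice and 3.82% to 5.14% in Control mice. Long genes were relatively lower in the 3 M1 libraries and in that of Control mouse 1 than in those of Control mice 2 and 3: the slope of the centred log2 level on log2 gene length was -0.024, -0.068 and -0.070 in M1 mice 1 to 3, against -0.021, 0.085 and 0.099 in Control mice 1 to 3. The members' own lengths ran from 1714 bases for Fis1 to 11605 bases for Miga1, so a fit with an offset for gene length is given beside the main values. The markers fixed for granulosa cells, theca and steroid-producing cells and oocytes were all detected in every library.

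None of the 10 genes passed the test. Over all tested genes this rule called 0.00571%, a single gene, so that a count of 0 of 10 is what the background gives. The 3 members with the smallest p were fusion genes. Opa1 averaged 84.7 ± 9.19 CPM in M1 mice and 106 ± 13.3 CPM in Control mice (SD, n = 3 each). Mfn1 averaged 70.7 ± 7.21 CPM in M1 mice and 85.1 ± 3.86 CPM in Control mice. Mfn2 averaged 48.6 ± 9.10 CPM in M1 mice and 71.2 ± 25.8 CPM in Control mice. All 4 outer membrane fusion genes and Opa1 had negative log2 fold changes, 2 of the 3 fission genes had positive ones, and none of these stood clear of the spread between mice after adjustment. Among the 10 genes, 7 log2 fold changes were negative and 3 positive, where 50.5% of all tested genes were negative. The median of the 10 was -0.14, against -0.0049 over all tested genes. At an unadjusted p under 0.05 by edgeR, 1 of the 10 genes (Opa1) was lower in M1 mice, where 9.17% of all tested genes were, and 0 were higher, where 7.70% of all were. DESeq2, run as an alternative, put the adjusted p of the 10 genes between 0.309 (Mfn2) and 0.812 (Mff), with none at an unadjusted p under 0.05. DESeq2 itself gave an adjusted p under 0.05 to 1.64% of the genes it adjusted as lower in M1 mice and to 1.46% as higher, none of the 10 among them. With limma-voom the adjusted p ran from 0.301 (Opa1) to 0.733 (Mff), again with none at an unadjusted p under 0.05. Without M1 mouse 2, edgeR called none of the 10, and their median log2 fold change was -0.16. In that fit Mfn2 was at -0.71, Opa1 at -0.40 and Mfn1 at -0.18, and all 10 genes had the sign they had with 6 mice.

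**Figure D1:**
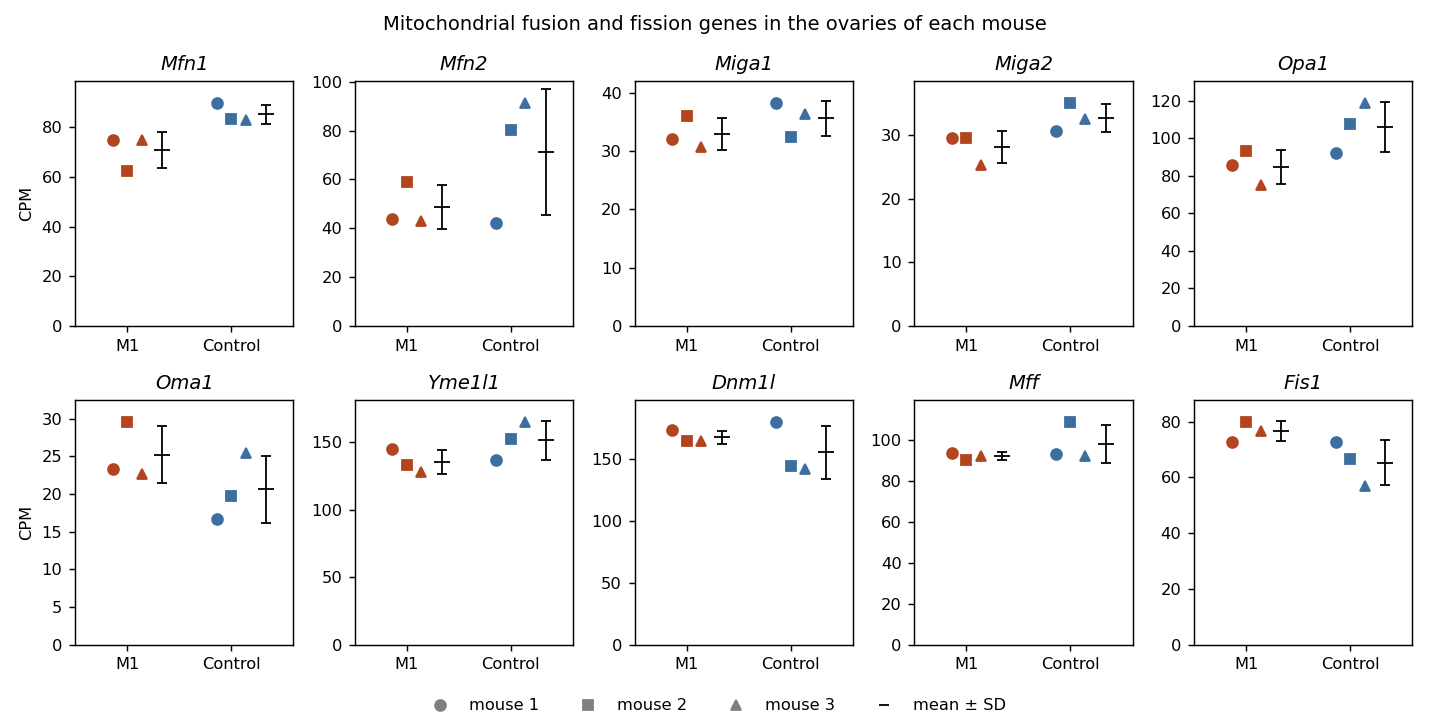
Level of each of the 10 genes in CPM (vertical axis, from 0) in the ovaries of each M1 mouse (red) and each Control mouse (blue), with the mouse number as the symbol and the mean ± SD beside the points. Mfn1 and Miga2 lay lower in every M1 mouse than in any Control mouse, Fis1 lay higher by 72.8 against 72.7 CPM at the nearest pair, and the other 7 genes overlapped between the groups. Of all tested genes, 11.2% lay lower in every M1 mouse and 11.4% higher.

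The promoters of the 3 members with the smallest p, Opa1, Mfn1 and Mfn2, are shown with that of Oma1, which shares a motif with Opa1. Each is the RefSeq window of GRCm38.p6 that reaches 250 bases before and 50 bases after an annotated start, read 5′ to 3′ on the gene's own strand. Capitals mark a match to the NRF1 motif GCGCNTGCGC or to the ETS motif CCGGAAG, each searched on both strands together with the letters of an estrogen-related receptor motif (TNAAGGTCA), a cyclic AMP response element (TGACGTCA) and an SP1 box (GGGCGG), of which the SP1 box is not capitalised. Opa1 is at chr16:29579084-29579383 (+), Oma1 at chr4:103313596-103313895 (+), Mfn1 at chr3:32529232-32529531 (+) and Mfn2 at chr4:147904649-147904948 (-), where the Mfn2 window is the one of its 3 that lies nearest the annotated start of the gene.
Opa1: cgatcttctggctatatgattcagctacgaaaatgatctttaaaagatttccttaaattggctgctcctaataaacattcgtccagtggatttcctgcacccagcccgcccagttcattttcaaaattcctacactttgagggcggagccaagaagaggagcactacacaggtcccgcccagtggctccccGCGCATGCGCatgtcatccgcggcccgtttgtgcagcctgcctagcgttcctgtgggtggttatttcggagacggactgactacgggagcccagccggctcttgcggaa
Oma1: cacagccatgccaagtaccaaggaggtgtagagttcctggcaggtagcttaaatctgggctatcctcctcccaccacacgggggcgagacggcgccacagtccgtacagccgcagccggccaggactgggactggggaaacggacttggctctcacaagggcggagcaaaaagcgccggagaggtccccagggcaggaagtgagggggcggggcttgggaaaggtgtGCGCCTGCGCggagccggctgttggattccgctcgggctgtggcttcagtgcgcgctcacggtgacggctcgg
Mfn1: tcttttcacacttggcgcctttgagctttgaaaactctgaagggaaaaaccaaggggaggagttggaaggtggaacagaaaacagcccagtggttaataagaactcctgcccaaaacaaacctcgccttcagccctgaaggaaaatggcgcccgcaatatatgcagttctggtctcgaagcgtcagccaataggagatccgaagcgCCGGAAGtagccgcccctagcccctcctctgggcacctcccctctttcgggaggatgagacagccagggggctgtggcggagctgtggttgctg
Mfn2: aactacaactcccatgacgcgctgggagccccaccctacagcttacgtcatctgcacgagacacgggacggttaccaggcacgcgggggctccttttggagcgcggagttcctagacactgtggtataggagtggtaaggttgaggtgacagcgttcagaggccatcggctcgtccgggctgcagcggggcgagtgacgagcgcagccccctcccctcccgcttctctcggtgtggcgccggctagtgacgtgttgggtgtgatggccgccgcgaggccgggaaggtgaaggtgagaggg

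The NRF1 letters stood 59 bases before the start in Opa1, where they read the same on both strands, and 23 bases before the start in Oma1. NRF1 is a transcription factor of nuclear genes for mitochondrial proteins. The 9 members with a RefSeq entry had 16 windows, of which 2 held this motif, and 4.60% of all 32851 promoter windows did. The ETS letters stood 44 bases before the start in Mfn1 and were also found in Dnm1l, Fis1 and Yme1l1. That was 5 of the 16 windows, where 8.86% of all windows held them. The estrogen-related receptor motif (1.28% of all windows) and the cyclic AMP response element (1.79%) were found in none of the 16 windows of the 9 genes. The SP1 box was found in 14 of the 16, where 35.7% of all windows held it. The shares over all windows were not matched for base composition, and the members' windows ran from 49.0% to 70.3% G and C. Overlapping windows of Mff, and likewise of Miga2, hold the same SP1 site, so these windows are not independent. The Mfn2 window printed here held none of the 5 motifs. Miga1 had no entry. A match is a description of the letters only, and the 2 genes that share the NRF1 motif had fold changes of opposite sign.

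Among the outer membrane fusion genes, Mfn1 (ENSMUSG00000027668, chr3:32529465-32579239, + strand, GRCm38) stood at 74.9, 62.4 and 74.9 CPM in M1 mice 1 to 3, against 89.6, 83.1 and 82.7 CPM in Control mice 1 to 3. Every M1 mouse lay below every Control mouse, and the nearest pair was 74.9 and 82.7 CPM. The log2 fold change of Mfn1 was -0.27 (SE 0.12, 95% interval -0.54 to 0.0081, edgeR unadjusted p = 0.0555, adjusted p = 0.307). Without Control mouse 1 it was -0.23, and with the gene length offset -0.17.

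Mfn2 (ENSMUSG00000029020, chr4:147873599-147904704, - strand), which also tethers mitochondria to the endoplasmic reticulum, stood at 43.8, 59.1 and 42.9 CPM in M1 mice 1 to 3, against 42.1, 80.3 and 91.1 CPM in Control mice 1 to 3. Control mouse 1 had the lowest level of all 6, and Control mice 2 and 3 had the highest. The groups therefore overlapped through 1 Control mouse, the library that also lay among the M1 mice on the first principal component. Its log2 fold change was -0.55 (SE 0.28, 95% interval -1.20 to 0.10, edgeR adjusted p = 0.355). Without Control mouse 1 it was -0.82 with an edgeR adjusted p of 0.0468, and Mfn2 was then called. In that fit 3.07% of 17994 tested genes were called lower and 1.28% higher, and Mfn2 was the only one of the 10 genes called in any alternative. The call rests on leaving out that mouse, and the length offset with all 6 mice gave -0.47 with an edgeR adjusted p of 0.446.

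Miga1 (ENSMUSG00000054942, chr3:152273849-152340407, - strand) stood at 32.1, 36.0 and 30.7 CPM in M1 mice 1 to 3, against 38.2, 32.4 and 36.4 CPM in Control mice 1 to 3. The groups overlapped, with M1 mouse 2 above Control mouse 2. Its log2 fold change was -0.12 (SE 0.13, 95% interval -0.41 to 0.18, edgeR adjusted p = 0.676), which was -0.066 without Control mouse 1 and turned to 0.048 with the gene length offset. Miga2 (ENSMUSG00000026858, chr2:30364233-30385521, + strand) stood at 29.5, 29.6 and 25.2 CPM in M1 mice 1 to 3, against 30.6, 35.0 and 32.6 CPM in Control mice 1 to 3. All M1 mice lay below all Control mice, by about 1 CPM at the nearest pair of 29.6 and 30.6. Miga2 had a log2 fold change of -0.22 (SE 0.13, 95% interval -0.52 to 0.078, edgeR adjusted p = 0.413), and it was -0.27 without Control mouse 1 and -0.11 with the length offset. An exon of the miRNA gene Gm47292 shares 96 bases with Miga2, which is 1.54% of its exon length.

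Opa1 (ENSMUSG00000038084, chr16:29579334-29654884, + strand) stood at 85.9, 93.3 and 75.0 CPM in M1 mice 1 to 3, against 92.3, 107.9 and 118.7 CPM in Control mice 1 to 3. Only the pair of M1 mouse 2 and Control mouse 1 was out of order, by 93.3 against 92.3 CPM. Opa1 had a log2 fold change of -0.33 (SE 0.14, 95% interval -0.65 to -0.00037, edgeR unadjusted p = 0.0498, adjusted p = 0.296), the smallest p among the 10 genes and rank 2941 among all tested. Without Control mouse 1 it was -0.42 (edgeR unadjusted p = 0.0137, adjusted p = 0.0967). With the length offset it was -0.18 (edgeR adjusted p = 0.530). Over the fits that each left out 1 mouse, the log2 fold change of Opa1 ran from -0.42 to -0.23. The value nearest 0 was that without M1 mouse 3 (edgeR unadjusted p = 0.194). The annotated Opa1 gene has 4 coding transcripts, which a count per gene adds together, so the transcripts for different OPA1 isoforms were not separated.

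The proteases that cut OPA1 went in opposite directions in sign and neither passed the test. Oma1 (ENSMUSG00000035069, chr4:103313812-103371868, + strand) stood at 23.4, 29.6 and 22.7 CPM in M1 mice 1 to 3, against 16.6, 19.7 and 25.5 CPM in Control mice 1 to 3. Control mouse 3 lay above M1 mice 1 and 3, so the groups overlapped. Its log2 fold change was 0.29 (SE 0.20, 95% interval -0.17 to 0.75, edgeR adjusted p = 0.482), and it was 0.16 both without Control mouse 1 and with the length offset. Yme1l1 (ENSMUSG00000026775, chr2:23156369-23199260, + strand) stood at 144.9, 133.0 and 127.9 CPM in M1 mice 1 to 3, against 136.5, 152.2 and 165.1 CPM in Control mice 1 to 3. M1 mouse 1 lay above Control mouse 1 and the groups overlapped. Yme1l1 had a log2 fold change of -0.16 (SE 0.12, 95% interval -0.45 to 0.12, edgeR unadjusted p = 0.227, adjusted p = 0.533). It was -0.23 without Control mouse 1 and -0.016 with the length offset. A processed pseudogene on chromosome X, Gm14897, matches 207 bases of Yme1l1 at 96.1% and had 0 counts in all 6 libraries.

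None of the 3 fission genes passed the test either. Dnm1l (ENSMUSG00000022789, chr16:16312230-16358959, - strand) stood at 173.2, 164.2 and 164.5 CPM in M1 mice 1 to 3, against 179.9, 144.4 and 141.7 CPM in Control mice 1 to 3. Control mouse 1 had the highest level of all 6, and the other two Control mice had the lowest. Its log2 fold change was 0.11 (SE 0.13, 95% interval -0.20 to 0.41, edgeR adjusted p = 0.711), 0.22 without Control mouse 1 and 0.17 with the length offset. On log2 TPM the sign of Dnm1l turned to -0.067, where the median of all genes also moved, to -0.16. An antisense gene, Gm49521, shares 243 exon bases with Dnm1l and had at most 2 counts in a library. A processed pseudogene on chromosome 2, Gm13719, matches 1347 bases of the longest coding Dnm1l transcript at 91.2% and had 0 counts in all 6 libraries.

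Mff (ENSMUSG00000026150, chr1:82724890-82752394, + strand) stood at 94.0, 90.3 and 92.4 CPM in M1 mice 1 to 3, against 93.2, 109.0 and 92.1 CPM in Control mice 1 to 3. All values but that of Control mouse 2 lay within a few CPM of each other. Mff had a log2 fold change of -0.089 (SE 0.11, 95% interval -0.35 to 0.18, edgeR adjusted p = 0.725), which was -0.13 without Control mouse 1 and turned to 0.070 with the length offset. The gene C430014B12Rik on the opposite strand shares 195 exon bases with Mff and had 3 to 12 counts per library. Fis1 (ENSMUSG00000019054, chr5:136953275-136966234, + strand) stood at 72.8, 79.9 and 76.8 CPM in M1 mice 1 to 3, against 72.7, 66.4 and 56.8 CPM in Control mice 1 to 3. The M1 mice lay above the Control mice, with 72.8 against 72.7 CPM at the nearest pair. On TPM the groups overlapped, with Control mouse 1 at 149 TPM and M1 mice 1 to 3 at 135, 130 and 137 TPM. The log2 fold change of Fis1 was 0.23 (SE 0.13, 95% interval -0.063 to 0.52, edgeR adjusted p = 0.384), and it was 0.31 without Control mouse 1 (edgeR unadjusted p = 0.0338, adjusted p = 0.151). With the length offset it was 0.058. Over the fits that each left out 1 mouse, the log2 fold change of Fis1 ran from 0.14 to 0.31. The lowest value was that without Control mouse 3 (edgeR unadjusted p = 0.324).

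**Figure D2:**
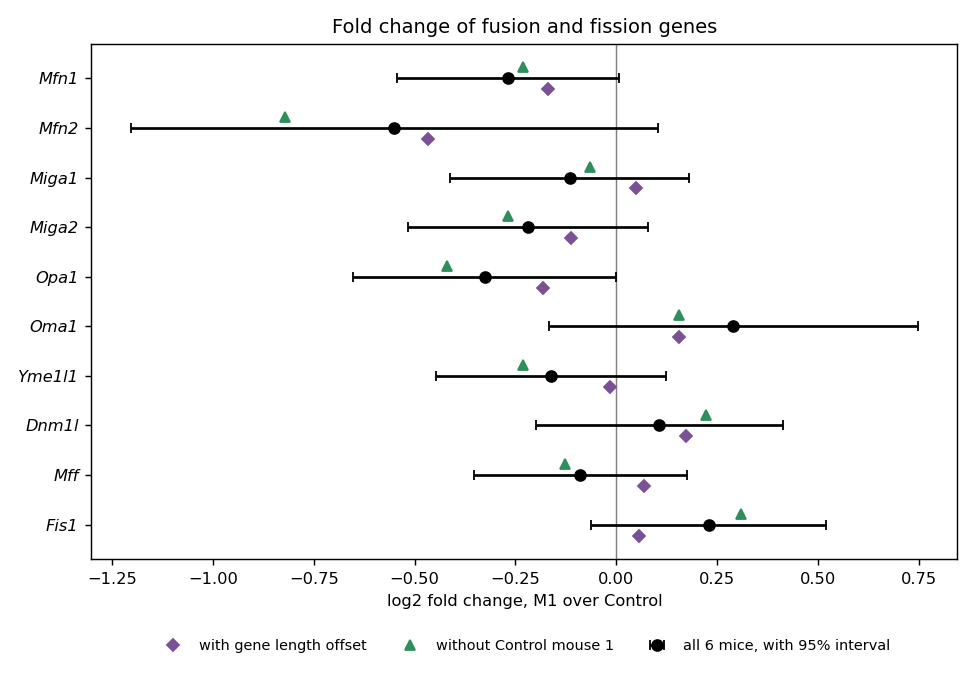
Log2 fold change of M1 over Control (horizontal axis) for each of the 10 genes (vertical axis), with the edgeR estimate from all 6 mice and its 95% interval in black, the estimate without Control mouse 1 as green triangles and the estimate with the gene length offset as purple diamonds. The interval of every gene but Opa1 held 0, and the length offset put the median of the 10 at 0.016, against -0.14 without it.

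The median of the set moved with the treatment of gene length. With the offset the log2 fold changes of Miga1 and Mff turned positive, the other members kept their sign, and the median of the 10 was 0.016. The members with positive log2 fold changes include both of the shortest ones, Fis1 at 1714 bases and Oma1 at 2144 bases. The shortest of those with negative ones was Mfn2 at 5194 bases. The remaining positive one, Dnm1l, is longer than Mfn2, at 5203 bases, and the offset moved it up from 0.11 to 0.17. With the offset Mfn2 was at -0.47, against -0.55 without it, Opa1 at -0.18, against -0.33, and Mfn1 at -0.17, against -0.27. On the deposited TPM, whose median over all genes lay at -0.16 on the log2 scale with a pseudocount of 1, 6 of the 10 genes (Mfn1, Miga1, Miga2, Opa1, Yme1l1 and Mff) lay lower in every M1 mouse than in any Control mouse, where 23.1% of all tested genes did. On CPM 2 of the 10 did, where 11.2% of all tested genes did, and 1 of the 10 lay higher in every M1 mouse, where 11.4% did. Without Control mouse 1, 2 of the 10 genes (Mfn2 and Opa1) were lower at an unadjusted p under 0.05 by edgeR, where 14.6% of all were, and 1 (Fis1) was higher, where 12.3% of all were. In a set of 10 genes, 1 gene is 10% of the set, and each of these counts lay within 1 gene of the background except that of 6 genes on TPM, a count that was added after seeing the data and was not tested.

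The members were also read within each mouse, as log2 CPM after subtraction of each gene's mean. The median of the 10 centred values was -0.026, 0.0066 and -0.10 in M1 mice 1 to 3, against -0.0056, 0.097 and 0.10 in Control mice 1 to 3. Control mouse 1 lay within the M1 range on this measure, as it did on the first principal component. Gene by gene it differed: Mfn2, at -0.44 on the centred log2 scale, was close to the -0.38 and -0.41 of M1 mice 1 and 3, whereas Mfn1 was at its highest of the 6 mice there, at 0.21, and Oma1 at its lowest, at -0.44. The mouse with the highest Oma1 was M1 mouse 2, at 0.39, which also had the lowest Mfn1, at -0.31. Mfn1 and Mfn2 therefore lay on opposite sides of their means in these mice, although both had negative fold changes. Beside these values, the summed TPM of 5 adipocyte markers was 4.31 to 9.33 in M1 mice and 11.6 to 21.0 in Control mice, with Adipoq, Lep, Cidec and Retn at 0 in at least 1 library. Only 1 of these 5 markers passed the filter on low counts. The 8 oocyte markers summed to 312 to 626 TPM in M1 mice and 608 to 1135 TPM in Control mice, and the 6 smooth muscle markers to 583 to 812 TPM in M1 mice and 802 to 1111 TPM in Control mice. The 7 granulosa markers summed to 2067 to 4285 TPM in M1 mice and 3235 to 4766 TPM in Control mice, and the 6 theca and steroid-producing markers to 19241 to 29936 TPM in M1 mice and 16446 to 26847 TPM in Control mice. The summed markers of blood, macrophages, oviduct epithelium and ovarian surface epithelium overlapped between the groups. Those of blood ran from 72.9 to 1289 TPM in M1 mice and from 207 to 502 TPM in Control mice. The part of these cell types, of the mitochondrial share of counts and of gene length in the members' values was not tested beyond the length offset.

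**Figure D3:**
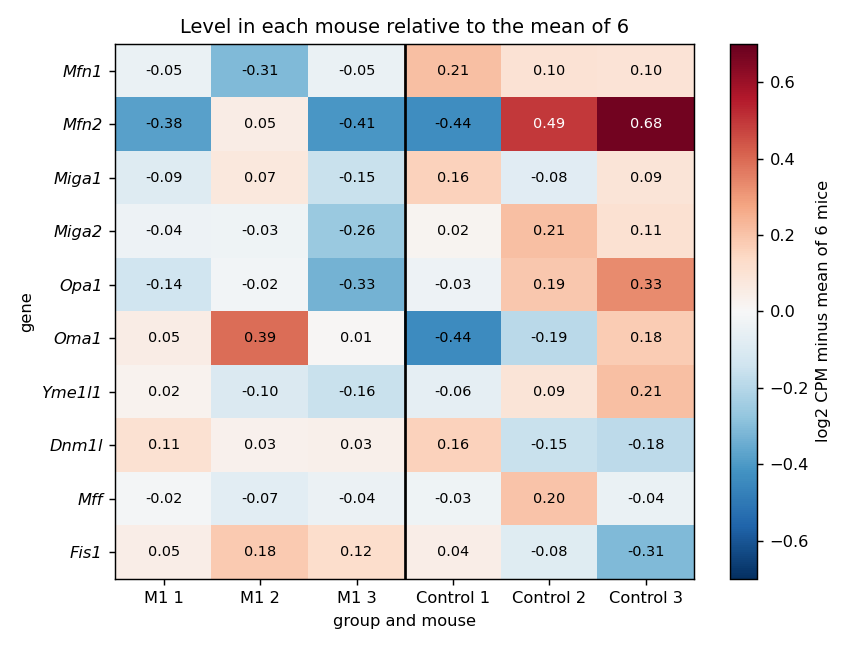
Level of each of the 10 genes (vertical axis) in each M1 and Control mouse (horizontal axis) as log2 CPM after subtracting the gene's mean over the mice, printed in each cell and coloured from blue (below the mean) to red (above it). Mfn2 had the widest range, from -0.44 in Control mouse 1 to 0.68 in Control mouse 3.

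Per length, the 10 genes ranged between means of 9.50 and 132 TPM. Fis1 had the highest mean over the 6 mice, 132 TPM, followed by Dnm1l at 99.4, Yme1l1 at 57.6, Mfn1 at 41.2, Opa1 at 39.1, Mfn2 at 37.2, Oma1 at 33.9, Mff at 31.3, Miga2 at 15.7 and Miga1 at 9.50 TPM. The order of Fis1, Dnm1l, Yme1l1 and Mfn1 held in all 6 mice, as did that of Mff, Miga2 and Miga1. Between Mfn1 and Mff the neighbours were not separated: Mfn1 exceeded Opa1 in 3 of 6 mice, Opa1 exceeded Mfn2 in 4, Mfn2 exceeded Oma1 in 3 and Oma1 exceeded Mff in 4, with overlapping ranges for each pair. The ranges over the 6 mice were apart only between Dnm1l and Yme1l1, between Mff and Miga2 and between Miga2 and Miga1. The place of Mff depends on which length is used. The deposited values divide by the union of all annotated exons, which is 9757 bases for Mff and 4.675 times its longest coding transcript of 2087 bases. For the other 9 genes this ratio ran from 1.12 to 2.34. Divided by the longest coding transcript instead, a choice made after seeing the data, Mff moved to 146 on the same scale, between Fis1 at 239 and Dnm1l at 130, and the order of the other 9 genes did not change.

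Ratios within a mouse do not depend on library size and are given as a description, with no test. Mfn1 to Mfn2 was 1.45, 0.897 and 1.48 in M1 mice 1 to 3, against 1.81, 0.879 and 0.771 in Control mice 1 to 3. In both groups mice lay on either side of 1 with the deposited lengths, and the mean over all 6 mice was 1.21, or 1.36 with the longest coding transcripts. Oma1 to Yme1l1 was 0.603, 0.831 and 0.663 in M1 mice 1 to 3, against 0.455, 0.484 and 0.576 in Control mice 1 to 3. This was the single ratio of the 6 in which the M1 mice lay above all Control mice, with a difference of the log2 means of 0.46. Its mean of 0.602 over all 6 mice became 0.396 with the longest coding transcripts. Oma1 is also the shorter gene of this pair, at 2144 bases against 8009 for Yme1l1. The share of all gene pairs whose ratio lies apart between the groups was not computed. The count of 1 ratio of 6 therefore has no background beside it. The mitofusins together against Dnm1l stood at 0.621, 0.684 and 0.649 in M1 mice 1 to 3, against 0.658, 1.05 and 1.14 in Control mice 1 to 3. Opa1 against Dnm1l stood at 0.328, 0.376 and 0.301 in M1 mice 1 to 3, against 0.339, 0.494 and 0.553 in Control mice 1 to 3. In both fusion to fission ratios Control mice 2 and 3 lay above all M1 mice and Control mouse 1 lay within the M1 range. Fis1 to Mff was 4.41, 5.04 and 4.73 in M1 mice 1 to 3, against 4.44, 3.47 and 3.51 in Control mice 1 to 3, and its mean of 4.27 over all mice became 1.65 with the longest coding transcripts. Miga1 to Miga2 was 0.586, 0.654 and 0.655 in M1 mice 1 to 3, against 0.672, 0.498 and 0.601 in Control mice 1 to 3, and its mean of 0.611 over all mice became 0.819 with the longest coding transcripts. With the deposited lengths Miga1 was the lower of the mitoguardins in every mouse.

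**Figure D4:**
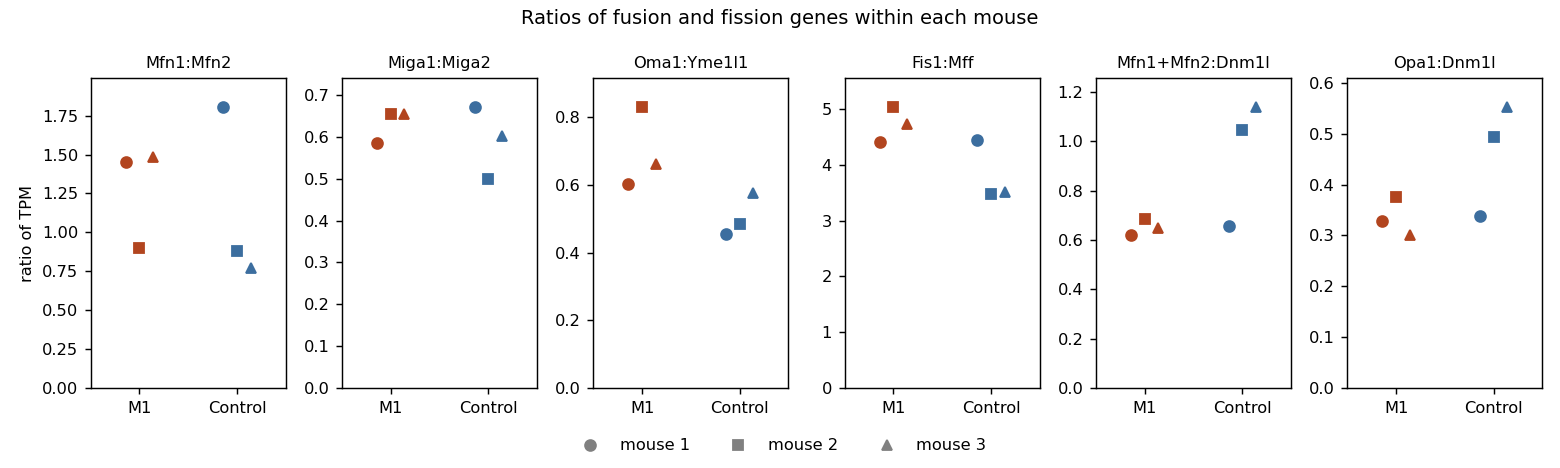
Ratio of TPM values of pairs of fusion and fission genes (vertical axes, from 0) in each M1 mouse (red) and each Control mouse (blue), with the mouse number as the symbol. The groups were apart only for Oma1 to Yme1l1, with a lowest M1 value of 0.603 and a highest Control value of 0.576, and Control mouse 1 lay among the M1 mice in both ratios to Dnm1l. No share over all gene pairs was computed beside this.

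The genes whose pattern over the 6 libraries was most like those of Opa1, Mfn1 and Mfn2 were sought over all tested genes by the root mean square difference of centred log2 CPM. Nearest to Opa1 were Mapk1ip1l at 0.0272, Pdcd11 at 0.0341 and Sh3bp2 at 0.0383, where the median over all genes was 0.355. Nearest to Mfn1 were Rcbtb1 at 0.0237, Agbl5 at 0.0254 and Dsel at 0.0374, with a median of 0.326. Nearest to Mfn2 were Exoc8 at 0.0734, Hip1 at 0.0737 and Ppp4r1 at 0.0813, with a median of 0.530. None of the 10 fusion and fission genes was among the 3 nearest of another, for these 3 genes. Each search kept only 3 of all tested genes, so this absence cannot decide whether the members vary together.

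A further 32 genes of fusion and fission, chosen by role, were read from the same fit, and all 32 were tested. None passed the adjusted threshold, and the smallest edgeR adjusted p was 0.195. The log2 fold changes were positive for 16 and negative for 16, with a median of -0.0078. Without M1 mouse 2 they were positive for 11 and negative for 21. At an unadjusted p under 0.05 by edgeR, 4 of the 32 were higher in M1 mice, where 7.70% of all tested genes were, and 5 were lower, where 9.17% of all were. In 4 of the 32 every M1 mouse lay above every Control mouse, where this held for 11.4% of all tested genes, and in 6 every M1 mouse lay below, where it held for 11.2%. The 12 genes of OPA1 processing, scaffold and cristae had 8 positive and 4 negative values with a median of 0.26, and held all 4 of the higher genes and 1 of the lower ones. The 16 other fission factors had 6 positive and 10 negative values with a median of -0.24, and held 4 of the lower genes. The split of these counts by role was not tested, and no median by role was computed with the length offset. The 4 higher genes ran from 747 bases (Romo1) to 5082 bases (Opa3). The 4 lower fission factors ran from 2373 bases (Pgam5) to 7766 bases (Spire1). The 4 cofactors of fusion had 2 of each sign and a median of 0.039.

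The smallest p belonged to Apoo, a subunit of the MICOS complex that shapes the junctions of cristae. Apoo averaged 37.6 ± 2.97 CPM in M1 mice and 23.7 ± 2.02 CPM in Control mice (SD, n = 3 each). Its log2 fold change was 0.67 (SE 0.13, edgeR unadjusted p = 0.00102, adjusted p = 0.195). DESeq2 gave Apoo an adjusted p of 0.0127, and edgeR gave 0.0403 without Control mouse 1, so its call depends on the tool and on that mouse, and with the length offset it was 0.44. Tbc1d15, a Rab GTPase-activating protein bound by FIS1, averaged 59.9 ± 3.76 CPM in M1 mice and 79.9 ± 4.37 CPM in Control mice, with a log2 fold change of -0.41 and an edgeR adjusted p of 0.201. Spire1, an actin nucleator with a mitochondrial splice form that takes part in fission, averaged 32.6 ± 2.24 CPM in M1 mice and 42.8 ± 1.90 CPM in Control mice, with -0.39 and 0.209 for the same quantities in edgeR. With the length offset the log2 fold change of Spire1 was -0.25 (edgeR unadjusted p = 0.0505, against 0.00995 without the offset). Romo1, a small inner membrane protein tied to OPA1 and cristae, averaged 44.6 ± 12.8 CPM in M1 mice and 26.8 ± 3.84 CPM in Control mice, with a log2 fold change of 0.73 and an edgeR adjusted p of 0.225. M1 mouse 1 overlapped with the Control mice for Romo1, the shortest of the 32 at 747 bases, and its value was 0.42 with the length offset. Opa3, a mitochondrial membrane protein named for optic atrophy, averaged 77.9 ± 3.98 CPM in M1 mice and 60.6 ± 5.71 CPM in Control mice, with a log2 fold change of 0.36 and an edgeR adjusted p of 0.232. The length offset gave log2 fold changes of 0.43 for Opa3 and -0.38 for Tbc1d15. Their edgeR adjusted p in that fit were 0.241 and 0.246. Without Control mouse 1 the log2 fold changes were -0.43 for Tbc1d15, -0.42 for Spire1, 0.85 for Romo1 and 0.29 for Opa3, and edgeR called none of these 4. None of the 5 genes, which were chosen for their small p, passed over all genes by edgeR with all 6 mice.

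**Figure D5:**
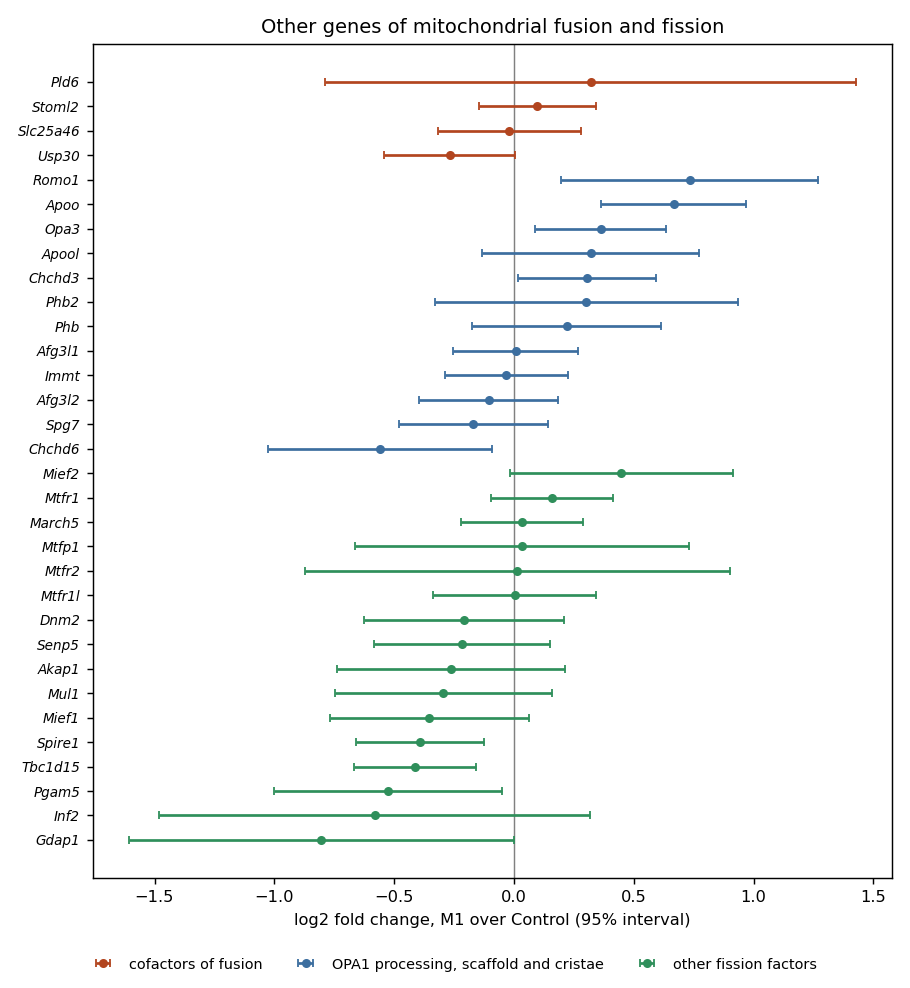
Log2 fold change of M1 over Control with its 95% interval from edgeR (horizontal axis) for the 32 other genes of fusion and fission (vertical axis), coloured by role and sorted within it. Apoo at 0.67 and Romo1 at 0.73 lay farthest to the right among the genes of OPA1 processing, scaffold and cristae, and none of the 32 passed at an adjusted p under 0.05.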

How the data were processed

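Ovarian mRNA was measured in 3 M1 and 3 Control mice, grouped by the sample labels. The authors trimmed reads with Trimmomatic 0.38, aligned them to GRCm38 with HISAT2 2.1.0 and counted them with featureCounts 2.0.0. Annotation release and strand setting are not given in the sources used here, and the recovered gene lengths equalled the exon unions of GENCODE vM21 within 1 base for all members. The count table deposited is raw, in whole reads per gene. To obtain TPM, the authors divided counts by gene length and scaled each library to an equal sum. Their FPKM, deposited as well, divide by length and assigned reads, and served here only to recover gene lengths. Reads of paralogs or overlapping genes could not be separated.

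The counts were fitted with edgeR 4.0.16 in R 4.3.3 (TMM, filterByExpr with minimum count 10 and total 15, quasi-likelihood test), with DESeq2 1.42.0 and limma 3.58.1 (voom, and trend on log2 TPM) as alternatives. Adjusted p-values are Benjamini-Hochberg over all tested genes, and edgeR's unless another tool is named. Replicates are separate mice. The common biological coefficient of variation was 0.257, and the members had 243 (Oma1) to 3039 (Yme1l1) counts per library. Other alternatives were RLE size factors, 2 other filters, a replicate block, a gene length offset (lowess span 0.5), leaving out the mitochondrial genome, each mouse left out, and TPM with pseudocounts of 1 and 0.1. The length of the longest coding transcript and the groups' overlap on TPM were added after seeing the data. Copies were sought with blastn 2.17.0 at 90% identity over 100 bases.

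Named genes are all 10 members, up to 5 of the 32 other genes with the smallest p, and the 3 genes nearest in pattern to each of the 3 members with the smallest p. The members and lists were chosen with earlier results of these data known.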

Additional observations from a re-analysis of the deposited data

How the results depend on the processing

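Each of the 10 members was refitted under 17 alternatives. Mfn1, Mfn2, Miga2, Opa1, Oma1, Yme1l1 and Fis1 kept the sign of their log2 fold change under all 17. Miga1 reversed to 0.048 with the gene length offset and to 0.050 with the offset and a replicate block, and Mff to 0.070 and 0.073 under the same settings. Dnm1l reversed to -0.067 on log2 TPM with either pseudocount. The median of the members, -0.14, was 0.016 with the length offset, 0.017 with the offset and block, -0.30 on TPM with a pseudocount of 1 and -0.32 with 0.1, where the medians of all genes were -0.16 and -0.18. The cause of these shifts was not tested, neither on TPM nor with the length offset.

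With 1 mouse left out, 0 to 1 members were called lower (Mfn2 at -0.82 without Control mouse 1, lowest to highest -0.82 to -0.33), 0 to 2 were lower at an unadjusted p under 0.05 and 0 to 1 higher. The unadjusted lower count of 1 became 0 with RLE size factors, DESeq2, limma-voom, the replicate block, the length offset, the offset with the block, and without the mitochondrial genome. It became 5 on TPM with either pseudocount. The share of all tested genes at this p on TPM was not computed, so that count has no background beside it. The medians of all genes on TPM were also negative, at -0.16 and -0.18. Over all genes, 1 was called higher and 0 lower. DESeq2 called 198 higher and 228 lower, and no filter beyond 1 count gave 77 higher and 78 lower. The block, alone or with the offset, gave 0 higher, and leaving out 1 mouse gave 0 to 230 higher and 0 to 552 lower, the most without Control mouse 1.

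The labels state no pairing of M1 and Control mice by replicate number. Deviations of same-numbered mice correlated at 0.0669, 0.106 and -0.255. With so few mice a group, these correlations cannot decide whether same-numbered mice were handled together. With the replicate block, 0 members were called, as without it.

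With 3 mice a group, the 95% intervals of the members reach from -1.20 (Mfn2) to 0.75 (Oma1) on the log2 scale. The data do not tell apart changes of different size inside a gene's own interval, and every interval but that of Opa1 held 0.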
